A study of Mus musculus with 7 samples.

Results

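The RNA of 10 hematopoietic cytokine receptor genes was followed through bone marrow cells of mice with HMGA2 overexpression, a RUNX1 mutation or both. The genes were Kit, Flt3, Csf1r, Csf3r, Csf2ra, Csf2rb, Csf2rb2, Il3ra, Il6ra and Ifngr1, taken by name from the 28987 genes of the deposited table. All 10 were in it. The RNA came from individual C57BL/6 mice of unstated age. The study set hematopoietic stem and progenitor cells (HSC/P) and Ly6G+ myeloid cells of mutant mice side by side, with 6 groups sequenced as 7 libraries. Among HSC/P, 2 libraries were of RUNX1mut/HMGA2-OE, a RUNX1 mutant that also overexpresses HMGA2, and 1 was of HMGA2-OE alone, so HMGA2-OE was shared by all 3 HSC/P libraries. The Ly6G+ groups were RUNX1mut/HMGA2-OE, RUNX1mut, HMGA2-OE and Control, with 1 library each. HSC/P were enriched with beads against CD117 and the mutant clone was then sorted by flow cytometry. The Ly6G+ cells were also sorted. The sources used here do not give the kind of RUNX1 mutation, the promoter behind HMGA2-OE or the way the mutant clone was marked.

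Cytokine receptors let blood cells read the growth factors that keep them alive and steer their maturation. Kit, Flt3 and Csf1r are receptor tyrosine kinases for stem cell factor, FLT3 ligand and macrophage colony-stimulating factor (M-CSF). Most of the others lack a kinase of their own and signal through JAK kinases and STAT factors, and CSF3R, the receptor for granulocyte colony-stimulating factor (G-CSF), is the main growth factor receptor of the neutrophil lineage. CSF2RA and IL3RA are the ligand-specific chains for GM-CSF and IL-3, and both pair with the common beta chain encoded by Csf2rb, while mice also have Csf2rb2, a beta chain used with the IL-3 receptor. IL6RA binds IL-6, and IFNGR1 binds interferon gamma.

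Positions and strands were taken from GENCODE M21 on GRCm38 (mm10). Of the kinase receptors, Kit (ENSMUSG00000005672) on chromosome 5 from 75574916 to 75656722 (+), Flt3 (ENSMUSG00000042817) on chromosome 5 from 147330741 to 147400489 (-) and Csf1r (ENSMUSG00000024621) on chromosome 18 from 61100598 to 61132149 (+) were annotated. The GM-CSF and IL-3 receptor chains were Csf2ra (ENSMUSG00000059326) on chromosome 19 from 61223957 to 61228429 (-), Csf2rb (ENSMUSG00000071713) on chromosome 15 from 78325752 to 78353847 (+), Csf2rb2 (ENSMUSG00000071714) on chromosome 15 from 78282507 to 78305721 (-) and Il3ra (ENSMUSG00000068758) on chromosome 14 from 14346275 to 14356011 (+). The others were Csf3r (ENSMUSG00000028859) on chromosome 4 from 126024550 to 126044440 (+), Il6ra (ENSMUSG00000027947) on chromosome 3 from 89864059 to 89913196 (-) and Ifngr1 (ENSMUSG00000020009) on chromosome 10 from 19591949 to 19610229 (+). Csf2rb and Csf2rb2 are neighbours in opposite orientation. The values are per gene, over all of its transcripts.

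The labels were checked first against the altered genes and the cell markers. Runx1 was at 219 and 225 TPM in RUNX1mut/HMGA2-OE HSC/P, against 18.9 TPM in HMGA2-OE HSC/P. Ly6G+ cells had it at 21.2 TPM in RUNX1mut/HMGA2-OE and 11.6 TPM in RUNX1mut, against 3.36 TPM in HMGA2-OE and 3.85 TPM in Control. Hmga2 in Ly6G+ cells stood at 12.1 TPM in RUNX1mut/HMGA2-OE and 3.72 TPM in HMGA2-OE, against 1.36 TPM in RUNX1mut and 1.45 TPM in Control, and HSC/P had it at 138 to 176 TPM. The sum of the 10 stem and progenitor markers was 4129 to 7195 TPM in HSC/P, against 618 to 961 TPM in Ly6G+ cells. The sum of the 11 neutrophil markers was 17705 to 61500 TPM in HSC/P, against 290291 to 669852 TPM in Ly6G+ cells. The RUNX1mut/HMGA2-OE Ly6G+ library stood apart, since the neutrophil gene S100a8 took 3.11% of its TPM and between 40.2% and 55% in the other 3 Ly6G+ libraries. TPM, a length-normalized share of all transcripts, depends on the rest of the library, so this gene bears on every TPM compared across libraries. Read depth is unknown. In bulk cells, fewer cells of a type and less RNA per cell cannot be told apart.

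The beta chain genes are close copies, and how far their reads can be told apart bears on every value given for them. The coding sequences of Csf2rb (2688 nt) and Csf2rb2 (2634 nt), both on mouse chromosome 15, were identical at 95.2% of 2628 aligned positions in GENCODE M21 on GRCm38. A stretch of 31 bases, taken from a sliding window along the coding sequence, occurred in both genes for 39.6% of Csf2rb windows and 40.4% of Csf2rb2 windows. The first sequence is a 90-nt coding stretch that both genes share without a difference (coding positions 662 to 751 of Csf2rb and 665 to 754 of Csf2rb2), and reads from it fit either gene. The next pair is the 90-nt stretch where they differ most, at 16 positions shown in capitals (coding positions 308 to 397 of Csf2rb and 311 to 400 of Csf2rb2).
Csf2rb and Csf2rb2, shared stretch: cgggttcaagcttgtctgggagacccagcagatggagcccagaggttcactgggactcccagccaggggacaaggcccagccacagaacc
Csf2rb, most different stretch: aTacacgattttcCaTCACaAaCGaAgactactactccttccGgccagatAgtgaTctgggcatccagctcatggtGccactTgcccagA
Csf2rb2, most different stretch: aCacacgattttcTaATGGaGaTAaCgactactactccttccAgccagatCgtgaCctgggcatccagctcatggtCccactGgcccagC
How the authors' quantification divided shared reads between the genes was not examined. Over whole transcripts, 19.7% of the 31-base windows of Csf2rb and 30.1% of those of Csf2rb2 lay in another gene of the table. Among the other members, this share was 14.9% for Csf1r transcripts, nearly all in Hmgxb3, which overlaps Csf1r on the opposite strand. For the remaining 7 members the share was at most 3.23%.

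The next sequences are promoters of receptors that differed between the cell types in opposite directions, with Kit and Flt3 higher in HSC/P and Csf3r and Csf2ra lower there after scaling. Each is 300 bases long, from 250 before to 50 after the annotated start, read on the gene's strand, from RefSeq on GRCm38.p6. Capitals mark the core letters of PU.1, a myeloid transcription factor (GAGGAA), and of RUNX factors (TGTGGT or TGCGGT), each searched on both strands. The windows are chr5:75574737-75575036 (+) for Kit, chr5:147400440-147400739 (-) for Flt3, chr4:126024409-126024708 (+) for Csf3r and chr19:61228369-61228668 (-) for Csf2ra.
Kit: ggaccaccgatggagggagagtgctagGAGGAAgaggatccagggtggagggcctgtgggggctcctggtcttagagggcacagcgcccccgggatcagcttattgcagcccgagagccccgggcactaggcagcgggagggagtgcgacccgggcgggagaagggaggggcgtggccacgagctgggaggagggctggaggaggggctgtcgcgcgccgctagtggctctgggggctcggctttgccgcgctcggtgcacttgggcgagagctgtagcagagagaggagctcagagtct
Flt3: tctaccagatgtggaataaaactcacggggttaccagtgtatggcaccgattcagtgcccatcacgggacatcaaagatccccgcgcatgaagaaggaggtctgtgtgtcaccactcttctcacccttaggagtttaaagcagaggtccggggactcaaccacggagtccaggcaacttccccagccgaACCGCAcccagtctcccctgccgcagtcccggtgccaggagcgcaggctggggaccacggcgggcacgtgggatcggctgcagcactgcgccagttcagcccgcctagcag
Csf3r: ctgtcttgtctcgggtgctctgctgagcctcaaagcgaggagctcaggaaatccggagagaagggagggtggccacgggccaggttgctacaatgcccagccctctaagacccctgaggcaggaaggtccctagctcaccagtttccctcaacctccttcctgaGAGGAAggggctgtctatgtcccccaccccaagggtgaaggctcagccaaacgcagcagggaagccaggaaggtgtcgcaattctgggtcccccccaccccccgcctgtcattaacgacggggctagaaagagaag
Csf2ra: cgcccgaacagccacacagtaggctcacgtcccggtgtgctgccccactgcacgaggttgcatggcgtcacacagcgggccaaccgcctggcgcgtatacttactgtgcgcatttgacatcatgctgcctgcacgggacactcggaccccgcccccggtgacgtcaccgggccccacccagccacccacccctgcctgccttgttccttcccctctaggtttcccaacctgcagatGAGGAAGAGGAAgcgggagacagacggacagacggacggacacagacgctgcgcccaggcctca
Of the 8 members with a promoter in the table, 5 held GAGGAA (Kit, Csf3r, Csf2ra, Csf2rb2 and Il6ra), and 28.3% of all 32851 promoters did. The letters of the RUNX motif were found in the Flt3 promoter alone among the 8, against 22.4% of all promoters. In Kit the PU.1 letters lay 223 bases before the start, in Csf3r 86 bases before it and in Csf2ra 14 and 8 bases before it, where the copies touch. The GATA letters (AGATAA or TGATAA) were in Csf2rb2 and Il6ra, against 18.6% of all promoters, and the C/EBP letters (TTNNGCAA) in Il3ra, against 10.8%. Csf1r and Csf2rb had no promoter sequence here and were not searched. A match in these windows describes letters and not binding.

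In deposited TPM Kit, Flt3 and Il3ra were higher in every HSC/P library than in any Ly6G+ library. So were 66.5% of 12881 genes, while 9.18% were lower in every HSC/P library. Csf3r made up most of the receptor RNA of the Ly6G+ cells. Kit was at 155 and 134 TPM in RUNX1mut/HMGA2-OE HSC/P and 61.8 TPM in HMGA2-OE HSC/P, and in Ly6G+ cells at 4.43 TPM in RUNX1mut/HMGA2-OE, 3.72 TPM in RUNX1mut, 3.43 TPM in HMGA2-OE and 5.2 TPM in Control. Every HSC/P library lay above every Ly6G+ library. HSC/P were selected with beads against CD117, the product of Kit, so the Kit difference is a description. Csf3r was at 70.5 and 62.3 TPM in RUNX1mut/HMGA2-OE HSC/P and 42.4 TPM in HMGA2-OE HSC/P. In Ly6G+ cells Csf3r was at 620 TPM in RUNX1mut/HMGA2-OE, 410 TPM in RUNX1mut, 556 TPM in HMGA2-OE and 533 TPM in Control. The lowest Ly6G+ value of this G-CSF receptor gene was thus far above the highest HSC/P value. Csf3r made up between 10.2% and 13.6% of the summed TPM of the 10 receptors in HSC/P, and between 53.7% and 69.5% in Ly6G+ cells.

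**Figure D1:**
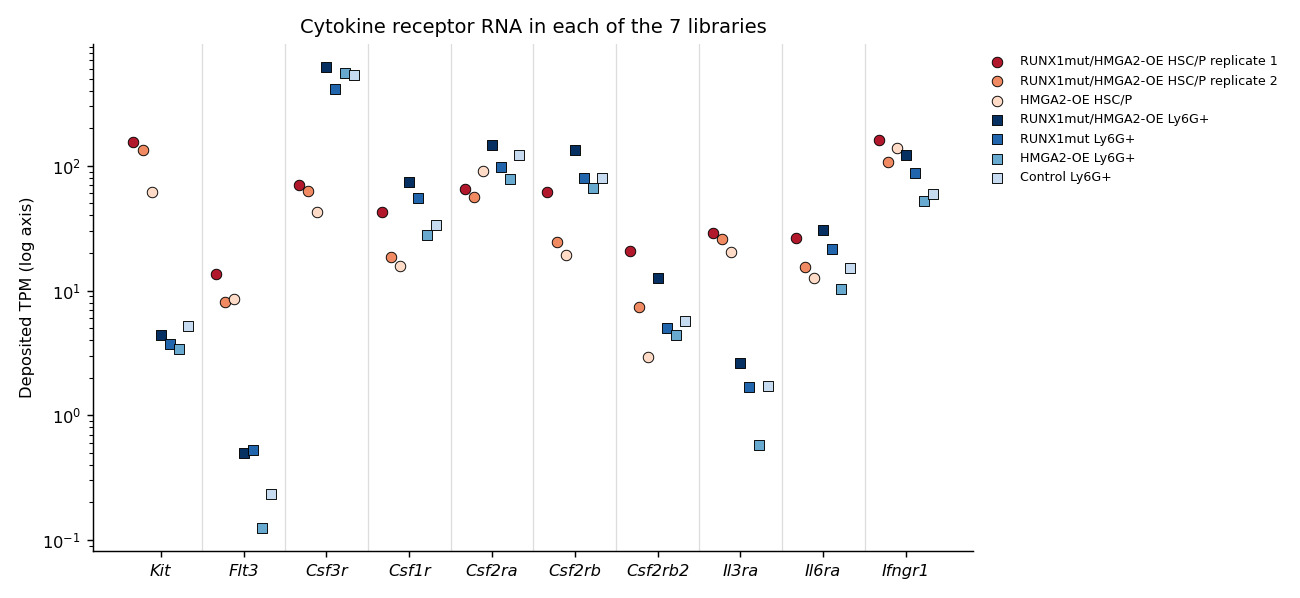
Deposited TPM of the 10 receptor genes (log axis), with 1 point per library, circles for the 3 HSC/P libraries and squares for the 4 Ly6G+ libraries. Kit, Flt3 and Il3ra lie higher in all HSC/P libraries, Csf3r and Csf2rb lie lower in all of them, and the other 5 overlap on this scale. Of 12881 genes, 66.5% lie higher and 9.18% lower in all HSC/P libraries.

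Flt3, whose product marks multipotent and lymphoid-primed progenitors, was at 13.6 and 8.06 TPM in RUNX1mut/HMGA2-OE HSC/P and at 8.59 TPM in HMGA2-OE HSC/P, against 0.125 to 0.531 TPM over the Ly6G+ libraries. The IL-3 receptor alpha chain gene Il3ra was at 29.1 and 25.9 TPM in RUNX1mut/HMGA2-OE HSC/P and at 20.3 TPM in HMGA2-OE HSC/P, against 0.581 to 2.61 TPM over the Ly6G+ libraries. Flt3 and Il3ra did not overlap between the cell types, with a background of 66.5% of genes higher in all HSC/P libraries. Ifngr1 was at 161 and 108 TPM in RUNX1mut/HMGA2-OE HSC/P and at 139 TPM in HMGA2-OE HSC/P, the highest or second highest receptor there. In Ly6G+ cells Ifngr1 was at 123 TPM in RUNX1mut/HMGA2-OE, 88.3 TPM in RUNX1mut, 52.3 TPM in HMGA2-OE and 59.1 TPM in Control. In deposited TPM the Ly6G+ library with both alterations thus reached into the HSC/P range for this interferon gamma receptor gene. With the 7 libraries scaled together Ifngr1 was at 140 in that library. The scaled range was 127 to 158 over the Ly6G+ libraries and 43.9 to 67.9 over HSC/P.

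The chains of the GM-CSF receptor were present in both cell types. Csf2ra was at 65.4 and 56.1 TPM in RUNX1mut/HMGA2-OE HSC/P and at 91.5 TPM in HMGA2-OE HSC/P. In Ly6G+ cells this alpha chain gene was at 147 TPM in RUNX1mut/HMGA2-OE, 98.4 TPM in RUNX1mut, 77.9 TPM in HMGA2-OE and 121 TPM in Control. Csf2rb was at 61.5 and 24.3 TPM in RUNX1mut/HMGA2-OE HSC/P and at 19.3 TPM in HMGA2-OE HSC/P. In Ly6G+ cells this beta chain gene was at 134 TPM in RUNX1mut/HMGA2-OE, 79.5 TPM in RUNX1mut, 66.7 TPM in HMGA2-OE and 80 TPM in Control. Csf2rb was lower in all HSC/P libraries (background 9.18% of genes), while Csf2ra overlapped. Its copy Csf2rb2 was at 20.6 and 7.4 TPM in RUNX1mut/HMGA2-OE HSC/P and at 2.93 TPM in HMGA2-OE HSC/P, against 4.38 to 12.6 TPM over the Ly6G+ libraries. The M-CSF receptor gene Csf1r ranged from 15.8 to 42.6 TPM in HSC/P and from 27.9 to 74.5 TPM in Ly6G+ cells. The IL-6 receptor gene Il6ra ranged from 12.7 to 26.3 TPM in HSC/P and from 10.3 to 30.6 TPM in Ly6G+ cells, a near complete overlap.

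The order of the levels differed between the cell types. In HSC/P the range of Ifngr1 overlapped that of Kit, Kit that of Csf2ra, and Csf2ra that of Csf3r, in falling order of their medians, and Csf2rb2 or Flt3 was lowest. In each Ly6G+ library Csf3r was first, at more TPM than any other member in any library, Csf2ra was second and Flt3 was last. Csf2ra, Csf2rb and Ifngr1 overlapped over the Ly6G+ libraries. The 10 receptors summed to 645 and 460 TPM in RUNX1mut/HMGA2-OE HSC/P and 415 TPM in HMGA2-OE HSC/P. In Ly6G+ cells the sum was 1149 TPM in RUNX1mut/HMGA2-OE, 764 TPM in RUNX1mut, 800 TPM in HMGA2-OE and 856 TPM in Control. These sums are not scaled, and S100a8 took only 3.11% of the TPM of the RUNX1mut/HMGA2-OE library. After scaling Csf3r, most of each sum, was at 393 in RUNX1mut/HMGA2-OE, 402 in RUNX1mut, 806 in HMGA2-OE and 592 in Control. The order of the sums thus does not show more receptor RNA with both alterations.

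**Figure D2:**
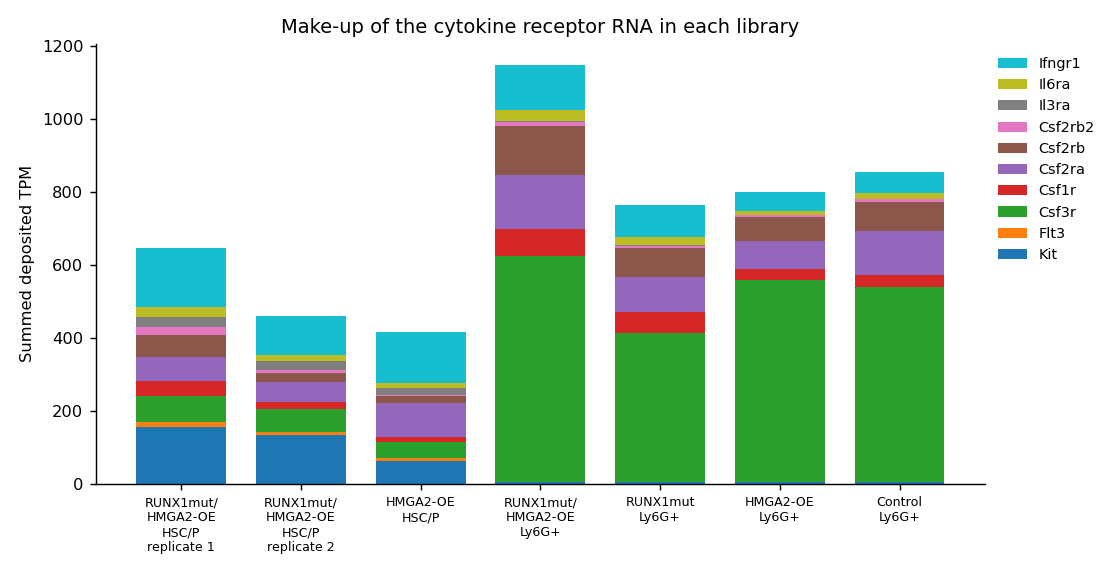
Summed deposited TPM of the 10 receptor genes in each of the 7 libraries, stacked by gene, from Kit at the bottom to Ifngr1 at the top. The bar heights are not scaled between libraries. Csf3r fills 53.7% to 69.5% of the Ly6G+ bars and 10.2% to 13.6% of the HSC/P bars. Ifngr1 and Kit are the largest blocks in both RUNX1mut/HMGA2-OE HSC/P bars, and Ifngr1 and Csf2ra in the HMGA2-OE HSC/P bar.

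The comparison of cell types used the 5 libraries with HMGA2-OE, 3 HSC/P and 2 Ly6G+, with the RUNX1 mutation as a covariate. After scaling between libraries Flt3 and Il3ra were higher in HSC/P than in Ly6G+ cells and 7 receptors were lower: Csf3r, Csf2rb, Csf1r, Csf2ra, Il6ra, Csf2rb2 and Ifngr1. All 9 members tested thus passed an adjusted p of 0.05 in limma, but the test called 8212 of 12686 genes, a background of 64.7% (32.2% higher and 32.5% lower), so that most genes differed between these cells. The members' median was -1.91 on the log2 scale, beside 0.10 over all genes. The scaled libraries gave 3 members higher in all HSC/P than in all Ly6G+ libraries, with a background of 35.1%, and 7 members lower, with a background of 35.4%. Without scaling, which leaves deposited TPM as it is, the same counts were 3 (background 66.5%) and 2 (background 9.18%).

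Csf3r differed most, with a log2 fold change of -5.27 ± 0.40 (SE) for HSC/P over Ly6G+ (adjusted p = 0.00116). The common beta chain gene Csf2rb followed at -3.59 ± 0.50 (adjusted p = 0.00458), and Csf1r, the M-CSF receptor gene, stood at -2.94 ± 0.40 (adjusted p = 0.00438). Flt3 differed by 2.04 ± 0.28 (adjusted p = 0.00432) and Il3ra by 1.92 ± 0.19 (adjusted p = 0.00193), and Kit had a fold change of 2.64 with no test. Those 5 calls, 2 higher and 3 lower, were also made without scaling (background 64.4% higher and 8.88% lower), where the values were -3.41 for Csf3r, -1.75 for Csf2rb, -1.12 for Csf1r and 3.31 for Il3ra. The other 4 calls rested on the scaling. Csf2ra stood at -2.49 ± 0.17 (adjusted p = 0.000971), but at -0.63 without scaling (adjusted p = 0.29). Il6ra stood at -1.99 ± 0.27 (adjusted p = 0.00421), but at -0.22 without scaling (adjusted p = 0.666). Csf2rb2 stood at -1.84 ± 0.53 (adjusted p = 0.0379), but at -0.20 without scaling (adjusted p = 0.673). Ifngr1 turned its direction, from -1.21 ± 0.23 (adjusted p = 0.0114) with scaling to 0.66 without it (adjusted p = 0.276). The unscaled values carry a shift, since the median gene then stood at 1.46 on the log2 scale. With upper quartile scaling Csf2rb2 (-1.38, adjusted p = 0.0808) and Ifngr1 (-0.70, adjusted p = 0.0592) lost their calls, and with no filter on low values they lost them too (-1.56, adjusted p = 0.118, and -0.90, adjusted p = 0.0511). With TPM rescaled without S100a8 and S100a9, Csf2rb2 (-0.71, adjusted p = 0.296), Il6ra (-0.77, adjusted p = 0.06) and Ifngr1 (0.07, adjusted p = 0.805) lost theirs. Csf2rb2 also lost its call without replicate 2 of RUNX1mut/HMGA2-OE HSC/P (-1.57, adjusted p = 0.0772). In an additive fit to all libraries but the RUNX1mut/HMGA2-OE Ly6G+ library, Csf2rb2 (-1.91, adjusted p = 0.116) and Ifngr1 (-1.23, adjusted p = 0.0534) lost theirs.

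**Figure D3:**
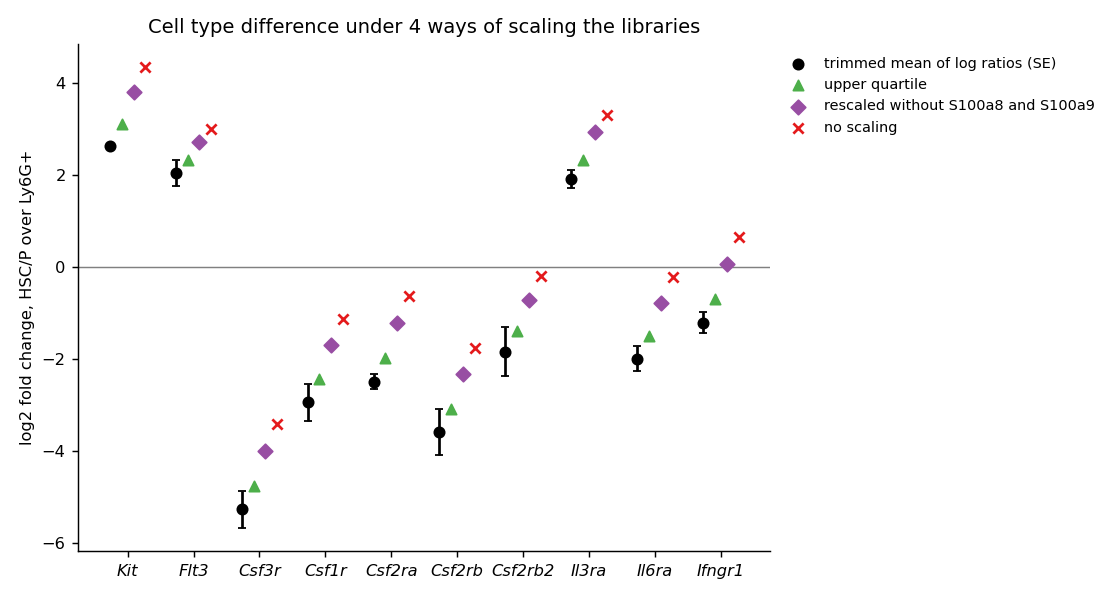
Log2 fold change of each receptor in HSC/P over Ly6G+ cells with HMGA2-OE under 4 ways of scaling, with bars of 1 SE on the black points (none for Kit, which was not tested). Csf3r, Csf2rb and Csf1r stay below 0 and Flt3, Il3ra and Kit above 0 in all 4, and Ifngr1 moves from -1.21 to 0.66.

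Ratios between receptors within a library do not depend on scaling between libraries. HSC/P were selected with beads against CD117, the product of Kit, so ratios with Kit are a description across the cell types. Values in the text are plain ratios of deposited TPM. The ratio of Kit to Csf3r was 2.2 and 2.15 in RUNX1mut/HMGA2-OE HSC/P and 1.46 in HMGA2-OE HSC/P, against 0.00714 in RUNX1mut/HMGA2-OE, 0.00907 in RUNX1mut, 0.00616 in HMGA2-OE and 0.00975 in Control Ly6G+ cells. The ratio of Il3ra to Csf2ra, alpha chains that share a beta chain, was 0.446 and 0.461 in RUNX1mut/HMGA2-OE HSC/P and 0.222 in HMGA2-OE HSC/P. In Ly6G+ cells the Il3ra to Csf2ra ratio lay between 0.00746 and 0.0177. The HSC/P with the RUNX1 mutation were thus above HMGA2-OE HSC/P in both ratios, and all HSC/P were above all Ly6G+ libraries.

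The ratio of the beta chains differed between the libraries too. The ratio of Csf2rb2 to Csf2rb was 0.335 and 0.304 in RUNX1mut/HMGA2-OE HSC/P and 0.152 in HMGA2-OE HSC/P, against 0.0627 to 0.0942 over the Ly6G+ libraries. The replicates were close for this ratio, although each gene alone was far apart between them. The ratio of Csf2ra to Csf2rb was 1.06 and 2.31 in RUNX1mut/HMGA2-OE HSC/P and 4.74 in HMGA2-OE HSC/P, against 1.1 to 1.51 over the Ly6G+ libraries. The ratio of Csf1r to Csf3r was 0.12 in RUNX1mut/HMGA2-OE and 0.135 in RUNX1mut Ly6G+ cells, against 0.0501 in HMGA2-OE and 0.0632 in Control Ly6G+ cells, so both libraries with the mutation lay above both without it. In HSC/P the Csf1r to Csf3r ratio was 0.603 and 0.297 in RUNX1mut/HMGA2-OE and 0.372 in HMGA2-OE, which overlapped. The ratio of Flt3 to Kit was 0.0879 and 0.0602 in RUNX1mut/HMGA2-OE HSC/P and 0.139 in HMGA2-OE HSC/P. Over the Ly6G+ libraries, where Flt3 was below 1 TPM, this ratio lay between 0.0365 and 0.143 and overlapped. With 1 added to TPM, its log2 value was -2.33 to -1.62 in Ly6G+ cells, above the -3.90 to -2.71 of HSC/P.

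**Figure D4:**
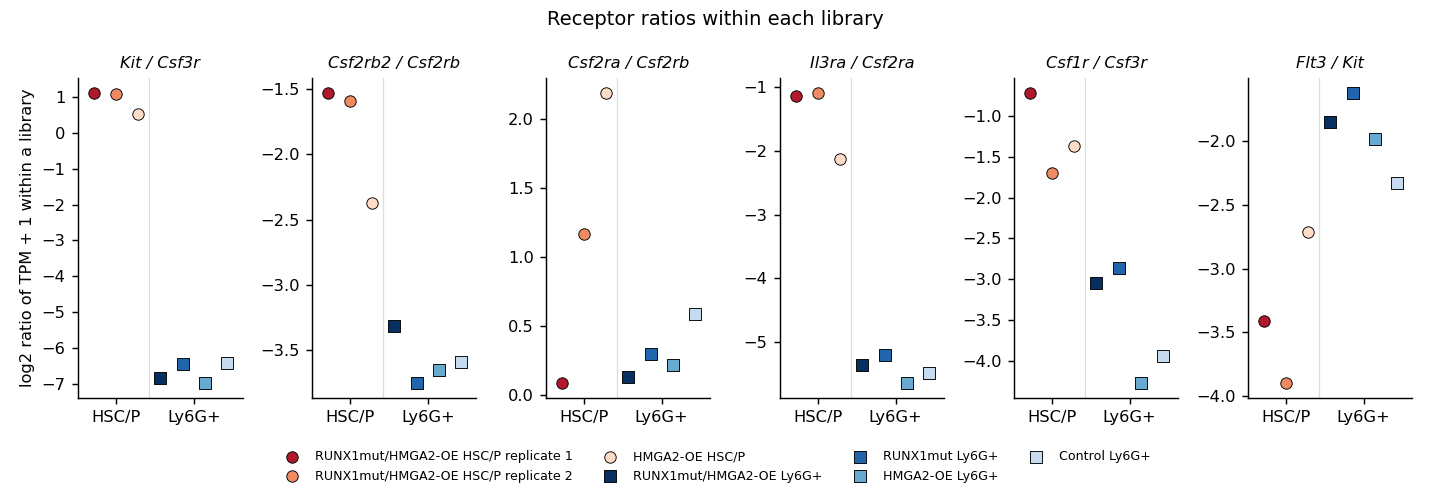
Log2 ratio of TPM + 1 for 6 receptor pairs within each library, with circles for HSC/P and squares for Ly6G+ cells and a separate axis per pair. The Csf2rb2 to Csf2rb and Il3ra to Csf2ra ratios put both RUNX1mut/HMGA2-OE HSC/P libraries above HMGA2-OE HSC/P. Kit to Csf3r separates the cell types most, and HSC/P were selected by the product of Kit.

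The RUNX1 mutation was compared on HMGA2-OE in the 3 HSC/P libraries, 2 against 1. Kit was higher and Csf2ra lower in both mutant libraries, but no receptor passed the test. Scaled TPM of Kit was 152 and 127 in RUNX1mut/HMGA2-OE, against 66.2 in HMGA2-OE, and the log2 difference was 1.06 ± 0.17 (SE, adjusted p = 0.162). The HSC/P were selected by the product of this gene in both groups. Scaled Csf2ra was 64.2 and 53.3 in RUNX1mut/HMGA2-OE, against 98 in HMGA2-OE, a log2 difference of -0.73 ± 0.17 (adjusted p = 0.225). Scaled Csf3r was 69.3 and 59.2 in RUNX1mut/HMGA2-OE, against 45.4 in HMGA2-OE, a log2 difference of 0.49 ± 0.17 (adjusted p = 0.318). These 3 were the members with an unadjusted p under 0.05, or 3 of 10, where the background was 15.5% of 12226 genes. After adjustment limma called 0 members and 0% of all genes.

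Csf2rb2 had the largest difference and the widest error, 1.66 ± 0.67 (adjusted p = 0.366), with scaled TPM of 20.2 and 7.02 in RUNX1mut/HMGA2-OE against 3.13 in HMGA2-OE. Csf2rb differed by 0.83 ± 0.63 and Csf1r by 0.66 ± 0.57, and their replicates disagreed. Scaled Csf2rb was 60.4 and 23.1 in RUNX1mut/HMGA2-OE against 20.7 in HMGA2-OE, and scaled Csf1r was 41.8 and 17.6 against 16.9. Il6ra differed by 0.49 ± 0.39, Il3ra by 0.27 ± 0.18, Flt3 by 0.13 ± 0.39 and Ifngr1 by -0.23 ± 0.31. The members' median was 0.49, beside 0.00 over all genes (-0.001). Both RUNX1mut/HMGA2-OE libraries lay above HMGA2-OE for 7 members, with a background of 39.7%, and below it for 1 member, Csf2ra, with a background of 39%. For Flt3 and Ifngr1 they lay on either side.

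Replicate 1 of RUNX1mut/HMGA2-OE HSC/P stood above replicate 2 in all 10 receptors. With 1 added to scaled TPM, 3 members were at least 2-fold apart between the replicates (Csf2rb2, Csf2rb and Csf1r), where 4.72% of 12226 genes were. The log2 ratio of replicate 1 over replicate 2 was 1.40 for Csf2rb2, 1.35 for Csf2rb and 1.20 for Csf1r. Monocyte and macrophage markers were also higher in replicate 1 for 10 of 11 genes, with a median log2 ratio of 0.61. So were eosinophil, basophil and mast cell markers for 7 of 8 (median 0.70), B lymphoid for 7 of 7 (0.37) and dendritic for 4 of 4 (0.33). Stem and progenitor markers were higher for 6 of 10 (0.45). Megakaryocyte markers were lower for 6 of 6, with a median of -1.49, erythroid markers for 7 of 7 (-0.62) and neutrophil markers for 7 of 11 (-0.21). The summed level of the monocyte list was 598 and 366 TPM in RUNX1mut/HMGA2-OE replicates 1 and 2 and 1021 TPM in HMGA2-OE HSC/P, with no marker at 0. Of these sums the single gene Ly6c2 held 182.3 and 176 TPM in the replicates and 715.4 TPM in HMGA2-OE HSC/P. Between genotypes 8 of 10 stem and progenitor markers were higher in RUNX1mut/HMGA2-OE HSC/P than in HMGA2-OE HSC/P (median 1.38), 10 of 11 neutrophil markers were lower (median -1.86) and 6 of 6 megakaryocyte markers were higher (median 2.14). Erythroid markers were lower for 7 of 7 (median -1.10) and monocyte and macrophage markers for 10 of 11 (median -0.39). The neutrophil list summed to 17705 and 18434 TPM in RUNX1mut/HMGA2-OE HSC/P and 61500 TPM in HMGA2-OE HSC/P. The part of these cells in the receptor values was not tested.

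In Ly6G+ cells the RUNX1 mutation was compared over all 4 genotypes, with HMGA2-OE as a covariate. Csf3r and Kit were lower and Csf1r, Il6ra and Ifngr1 higher in both mutant libraries after scaling, and no receptor passed the test. Scaled Csf3r was 393 in RUNX1mut/HMGA2-OE and 402 in RUNX1mut, against 806 in HMGA2-OE and 592 in Control, a log2 difference of -0.80 ± 0.17 (SE, adjusted p = 0.331). Scaled Kit was 2.81 in RUNX1mut/HMGA2-OE and 3.65 in RUNX1mut, against 4.96 in HMGA2-OE and 5.77 in Control, a log2 difference of -0.60 ± 0.13 (adjusted p = 0.331). The mutant and other libraries did not overlap for either gene on this scale. In deposited TPM they overlapped for both, with Csf3r at 620 and 410 TPM in the mutant libraries and 556 and 533 TPM in the others. Scaled Csf1r was 47.2 in RUNX1mut/HMGA2-OE and 54.4 in RUNX1mut, against 40.3 in HMGA2-OE and 37.4 in Control, a log2 difference of 0.37 ± 0.14 (adjusted p = 0.377). Il6ra differed by 0.32 ± 0.11 and Ifngr1 by 0.22 ± 0.15, while Csf2ra differed by -0.37 ± 0.12 and Csf2rb by -0.18 ± 0.10.

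Flt3 did not reach 1 TPM in Ly6G+ cells and was not tested, which left 9 members. Kit and Csf3r had an unadjusted p under 0.05, or 2 of 9, where the background was 14.3% of 9820 genes. Limma called 0 members and 0% of all genes after adjustment. Both mutant libraries lay above both others for 3 members, with a background of 26.1%, and below for 4, with a background of 24.5%. The unscaled median gene stood at 0.58 for this term, and Csf2ra, Csf2rb and Csf2rb2 were then above 0 (0.31, 0.49 and 0.59). The additive fit to all libraries but the RUNX1mut/HMGA2-OE Ly6G+ library pools HSC/P and Ly6G+ cells in its RUNX1 term. In that fit Kit was at 0.28 and Ifngr1 at -0.02, both with the sign turned. Csf3r was then at -0.03 (adjusted p = 0.98), against -0.80 in the 4 Ly6G+ libraries. With all 7 libraries, where the term pools the cell types too, Csf3r was at -0.36 and Kit at -0.05. In the 4 Ly6G+ libraries without scaling they were at -0.11 and -0.05. The scaled Ly6G+ pair of RUNX1mut over Control, which holds no HSC/P, had Csf3r at -0.56, Kit at -0.54 and Ifngr1 at 0.40. Monocyte and macrophage markers were higher in the mutant libraries for 7 of 9 tested genes, with a median log2 difference of 0.94, and stem and progenitor markers for 8 of 10, with a median of 0.87. Megakaryocyte markers were higher for 5 of 5 (median 1.66), erythroid markers for 6 of 7 (median 1.34), eosinophil, basophil and mast cell markers for 4 of 6 (median 1.18) and B lymphoid markers for 6 of 6 (median 0.75), and neutrophil markers were lower for 9 of 11 (median -0.20). The monocyte list summed to 857 TPM in RUNX1mut/HMGA2-OE and 926 TPM in RUNX1mut, against 1093 TPM in HMGA2-OE and 1487 TPM in Control. Most of each sum was the single gene Ly6c2, at 663.5, 787.7, 1032.5 and 1411.1 TPM in the same order, so the sum mainly follows that gene. The part of other cells in the Csf1r and Kit values was not tested.

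**Figure D5:**
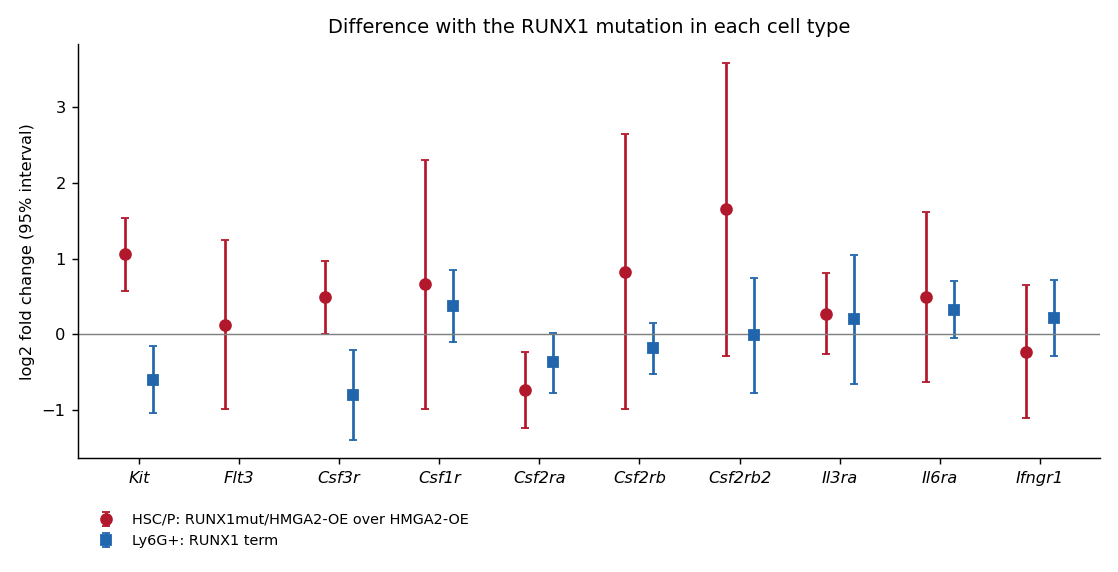
Log2 difference with the RUNX1 mutation for each receptor, with 95% intervals from limma, for HSC/P (RUNX1mut/HMGA2-OE over HMGA2-OE, circles) and Ly6G+ cells (term of the additive fit, squares). Kit and Csf3r are above 0 in HSC/P (1.06 and 0.49) and below 0 in Ly6G+ cells (-0.60 and -0.80), and Flt3 was not tested in Ly6G+ cells.

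For HMGA2-OE in Ly6G+ cells no receptor passed the test. The values ranged from -0.33 ± 0.25 for Il3ra to 0.30 ± 0.22 for Csf2rb2, with a members' median of -0.05 beside 0.01 over all genes. No member had an unadjusted p under 0.05 (0 of 9), where the background was 6.51% of 9820 genes, and limma called 0% of all genes. The 95% interval for Csf3r reached from -0.39 to 0.80 and that for Kit from -0.68 to 0.21, so differences within those intervals were not excluded here. Among single Ly6G+ pairs, which have no test, counted with 1 added to scaled TPM, Csf3r was the only member at least 2-fold apart, at -1.03 on the log2 scale in RUNX1mut/HMGA2-OE over HMGA2-OE. In that pair 4.99% of genes were at least 2-fold lower and 4.93% higher. For RUNX1mut over Control 3.56% were lower and 5.36% higher, and for HMGA2-OE over Control 3.19% and 3.27%. For RUNX1mut/HMGA2-OE over RUNX1mut the shares were 4.39% and 3.97%, and over Control 5.88% and 6.66%. In deposited TPM, with 1 added too, the same Csf3r ratio was 0.16. The Csf3r ratio was -0.56 for RUNX1mut over Control and 0.44 for HMGA2-OE over Control on the same scale, and these pairs share the Control library.

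Whether the mutation went with a different change in HSC/P than in Ly6G+ cells was tested as an interaction in the 5 libraries with HMGA2-OE. Kit had an interaction of 1.84 ± 0.26 on the log2 scale (adjusted p = 0.165) and Csf3r one of 1.58 ± 0.23 (adjusted p = 0.167), both positive, which means a higher value with the mutation in HSC/P relative to Ly6G+ cells. Beads against CD117, the product of Kit, selected the HSC/P only, so the Kit value here is a description. Without scaling, where the median gene stood at -0.77, the interaction was 0.91 for Kit and 0.48 for Csf3r. With scaling those were the 2 of 10 members with an unadjusted p under 0.05, where the background was 18.1% of 12686 genes. Limma called 0% of genes after adjustment, so a difference between the cell types was not shown for any receptor. The intervals were wide for the beta chains, from -2.07 to 4.57 for Csf2rb2 and from -2.23 to 4.34 for Csf2rb. Each cell type's own values rest on the same HMGA2-OE libraries as the separate fits above.

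The wider pathway was read from lists of ligands, other receptor chains, JAK and STAT genes, and inhibitors and adaptors. Of 13 ligand genes 12 were in the table and only Csf1, which encodes M-CSF, passed the filter. Csf1 was at 2.47 and 1.12 TPM in RUNX1mut/HMGA2-OE HSC/P and 2.06 TPM in HMGA2-OE HSC/P, and in Ly6G+ cells at 8.96 TPM in RUNX1mut/HMGA2-OE, 3.25 TPM in RUNX1mut, 8.61 TPM in HMGA2-OE and 3.65 TPM in Control. Csf1 was lower in HSC/P than in Ly6G+ cells, by -3.26 ± 0.33 (adjusted p = 0.00204). Its HMGA2-OE term in Ly6G+ cells was 1.04 ± 0.26, which did not pass (adjusted p = 0.741).

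Of 22 other receptor chains tested between the cell types, 5 were higher and 14 lower in HSC/P, with a median of -1.93 and a background of 32.2% higher and 32.5% lower over all genes. Without scaling 6 were higher and 6 lower, with a median of -0.36 and a background of 64.4% higher and 8.88% lower. The same backgrounds apply to the next lists. The genes called both ways were the 5 higher and 6 of the lower. Among the higher ones were Epor, the erythropoietin receptor (2.95), Il1r1, Il6st, which encodes the gp130 partner of IL6RA, and Il1rl1. The lower ones were Il1r2, a decoy receptor for IL-1 (-6.61 ± 0.48), Il17ra (-4.04 ± 0.16), Ifngr2, the partner of IFNGR1 (-3.76), Tnfrsf1a, Il10rb and Il4ra. The lower calls that rested on the scaling were Ifnar1, Ifnar2, Tnfrsf1b, Il10ra, Tgfbr2, Tgfbr1, Il1rap and Il18r1. Of the partner chains of members, Il6st was at 15.3 and 7.07 TPM in RUNX1mut/HMGA2-OE HSC/P and 4.06 TPM in HMGA2-OE HSC/P, against 0.0447 to 0.836 TPM over the Ly6G+ libraries. Ifngr2 was at 15.2 and 8.53 TPM in RUNX1mut/HMGA2-OE HSC/P and 12.7 TPM in HMGA2-OE HSC/P, against 37.7 to 61.1 TPM over the Ly6G+ libraries.

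Of 11 JAK and STAT genes, 1 was higher and 7 lower in HSC/P (median -1.32). Without scaling 4 were higher and 1 lower (median 0.51). Stat5a, a factor below the IL-3 and GM-CSF receptors, was higher both ways (1.65). Stat3, the main factor below the G-CSF receptor, was lower both ways (-3.49 ± 0.31). Stat6 (-2.92 ± 0.22), Jak1, Stat4, Stat5b (-1.32) and Stat2 were among those called lower with scaling only. Of 19 inhibitors and adaptors, 4 were higher and 11 lower (median -1.18), and 7 and 5 without scaling (median 0.29). Those called both ways included Sos1, Cblb, Ptpn11 and Pik3r1 among the higher, and Ptpn6, a phosphatase that restrains receptor signals (-4.01 ± 0.24), Socs3, Lyn and Pik3cd among the lower. Sh2b3, Syk, Pias1, Cish, Gab2 and Cbl were called lower with scaling only.

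With the RUNX1 mutation in HSC/P no gene of these lists passed. Of 21 other receptor chains 13 had higher values and 8 lower (median 0.36), and 9 had an unadjusted p under 0.05, where the background was 15.5%. Il10ra was at 8.93 and 14.5 TPM against 2.40 TPM (1.75 ± 0.35, adjusted p = 0.202). Jak3, the kinase of the common gamma chain receptors, was at 83.2 and 75.3 TPM in RUNX1mut/HMGA2-OE against 29.7 TPM in HMGA2-OE (1.24 ± 0.16, adjusted p = 0.144). Among the inhibitors Socs3, which dampens the G-CSF and IL-6 receptors, was at 15.6 and 8.55 TPM in RUNX1mut/HMGA2-OE against 1.71 TPM in HMGA2-OE (2.10 ± 0.44, adjusted p = 0.206). The other genes named by size were Stat4 (0.60 ± 0.20) and Socs2 (1.16 ± 1.16), whose replicates disagreed. The JAK and STAT list had 9 of 11 higher values (median 0.25) and the inhibitors 12 of 19 (median 0.13).

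In Ly6G+ cells with the RUNX1 mutation 12 of 18 other receptor chains had lower values (median -0.33) and 5 an unadjusted p under 0.05, where the background was 14.3%. Il1r2 was at 62.2 TPM in RUNX1mut/HMGA2-OE and 75.8 TPM in RUNX1mut, against 207 TPM in HMGA2-OE and 154 TPM in Control (-2.04 ± 0.53, adjusted p = 0.342). Stat4 stood at -0.84 ± 0.14, Stat6 at -0.43 ± 0.10 and Cish at 1.47 ± 0.98, and 0 genes passed. Socs3, the second of its list by size, was at 16.2 TPM in RUNX1mut/HMGA2-OE and 13.3 TPM in RUNX1mut, against 20.7 TPM in HMGA2-OE and 17.5 TPM in Control. For the HMGA2-OE term the largest value was that of the adaptor gene Grb2, at 62.6 TPM in RUNX1mut/HMGA2-OE and 33.9 TPM in HMGA2-OE, against 974 TPM in RUNX1mut and 2365 TPM in Control (-5.13 ± 0.36, adjusted p = 0.304). Ptpn6 (-1.34 ± 0.47), Il1rl1 (-1.25 ± 0.97), Ifnar1 (0.90 ± 0.57), Jak3 (0.58 ± 0.13) and Stat3 (0.49 ± 0.25) also did not pass. For the interaction the largest were Socs3 (3.43 ± 0.63), Epor (-2.92 ± 0.35), Il10ra (1.86 ± 0.50), Stat4 (1.66 ± 0.23), Jak3 (1.28 ± 0.22), Socs1 (1.09 ± 0.26) and Csf1 (0.93 ± 0.50), and none passed.

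The genes whose levels ran closest to each receptor over the 7 libraries were found by the root mean square difference of centred log2 scaled TPM, among 8407 genes averaging at least 5 TPM. For Kit they were Pim1, a serine kinase (0.27), and Accs (0.30), and for Flt3 they were Cdk6, a cell cycle kinase (0.15), and Gtf3c4 (0.16). For Il3ra they were Cdpf1 (0.12) and Hmbox1 (0.17), and the nearest member to Il3ra was Flt3 (0.25). Csf3r ran closest to Ppp1r3b (0.23) and to Osm, the cytokine oncostatin M (0.25), and was far from every other member, the nearest being Csf2rb (0.95). Csf2rb ran close to Hopx (0.14), and Csf2ra ran closest to Arl11 (0.10) and Dock5 (0.11). For Csf1r they were Trf (0.23) and Slc28a2 (0.26), for Csf2rb2 Csnk1e (0.29) and Mgam (0.32), for Il6ra Hgf, the hepatocyte growth factor (0.15), and Trim16 (0.20), and for Ifngr1 Mindy3 (0.13) and Glg1 (0.14). The cell type difference makes up most of each pattern, and likeness over 7 libraries is a description.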

How the data were processed

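RNA sequencing of 7 libraries was analysed from 1 deposited table. The authors deposited TPM without naming the unit. It was read off the values, which are not whole and sum to 896820 to 993009 in each column. The tools named per the submitters' processing notes are bcl2fastq, CASAVA 1.8 and kallisto, with the build mm10. The sources used here give no kallisto version, index or annotation. TPM holds no read counts, so depth and counting error are unknown.

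Symbols and gene positions came from GENCODE M21 for 27458 of 28987 identifiers. Scale factors per library were unweighted trimmed means of log ratios, with trims of 0.3 and 0.05. After adding 1 TPM, limma 3.58.1 in R 4.3.3 was fitted with a variance trend to log2 values. A fit kept genes that reached 1 TPM in 2 or more of its libraries. Fold changes on this scale understate those of low genes. Tests were two-sided, with Benjamini-Hochberg adjustment over all genes of a fit and a threshold of 0.05, and the ± values are standard errors. There were 5 tested comparisons. The HSC/P and interaction fits have 1 residual degree of freedom, from the replicated group, and assume that the lone libraries vary like it. The additive Ly6G+ fit also has 1 and the cell type fit 2. The labels do not say whether HSC/P and Ly6G+ libraries of a genotype came from the same mouse, and the fits treat all libraries as independent. The p-values cover the spread between these libraries only. Kit was not tested for a difference between cell types, but the interaction fit kept it. From each pathway list the text names the members called, otherwise the 2 largest changes. Some genes that this rule names are not reported here. The fitting procedure was tested on simulated data. Sequence work used Python 3.11.15 and Biopython 1.88, and figures matplotlib 3.10.9. The members and lists were chosen with earlier results of these data known. Other settings tried were no scaling, upper quartile scaling, TPM rescaled without S100a8 and S100a9, added values of 0.1 and 5 TPM, no filter, a filter of 5 TPM, no variance trend, all 7 libraries in an additive fit, and leaving out libraries.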

Additional observations from a re-analysis of the deposited data

How the results depend on the processing

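No paired analysis was made, because the labels do not say whether HSC/P and Ly6G+ libraries of a genotype came from the same mouse. The cell type calls of Csf3r, Csf2rb, Csf1r, Flt3 and Il3ra held under all alternatives run. Of 9 members called between the cell types, 5 were called without scaling, 7 with upper quartile scaling, 6 with TPM rescaled without S100a8 and S100a9, 7 with no filter and 7 in the additive fit without RUNX1mut/HMGA2-OE Ly6G+, and leaving out either replicate gave 8 to 9 members and 6401 to 6692 genes. Ifngr1 then had 0.66 without scaling and 0.07 when TPM was rescaled without S100a8 and S100a9, against -1.21. Counts of genes called elsewhere also moved, with 0 members among them. Without scaling 1 gene was called for the RUNX1 mutation in HSC/P, 133 for the RUNX1 term and 61 for the HMGA2-OE term in Ly6G+ cells. The HMGA2-OE term called 58 genes in the additive fit to all 7 libraries and 47 without RUNX1mut/HMGA2-OE Ly6G+. The interaction called 3250 genes with no filter and 1 with a filter of 5 TPM.

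Uncalled members changed sign as follows. In HSC/P, leaving out replicate 1 or 2 gave Flt3 at -0.22 or 0.49 and Ifngr1 at -0.53 or 0.08. For the RUNX1 term without scaling, Csf2ra was at 0.31, Csf2rb at 0.49 and Csf2rb2 at 0.59. Csf2rb2 was at 0.01 with upper quartile scaling, 0.05 without S100a8 and S100a9 and 0.03 with a filter of 5 TPM. With all 7 libraries, where the term pools HSC/P and Ly6G+ cells, Csf2rb was at 0.13, Csf2rb2 at 0.49 and Ifngr1 at -0.04. In the same pooled fit without RUNX1mut/HMGA2-OE Ly6G+ these were 0.31, 0.62 and -0.02, and Kit was at 0.28. For the HMGA2-OE term, Csf1r was at 0.08 without scaling and 0.12 without RUNX1mut/HMGA2-OE Ly6G+, where Kit was at 0.25. Ifngr1 was at -0.03 without S100a8 and S100a9 and -0.01 with no filter. For the interaction without scaling, where the median gene stood at -0.77, Csf1r was at -0.59, Csf2rb at -0.03 and Il6ra at -0.85. Flt3 was at 0.00 with 5 TPM added. Leaving out replicate 1 or 2 gave Flt3 at -0.50 or 0.17, Csf1r at -0.15 or 1.01, Il6ra at -0.24 or 0.50 and Ifngr1 at -0.55 or 0.07. The cause was not tested.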

Other observations

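The replicates of RUNX1mut/HMGA2-OE HSC/P differed in Il5ra, which encodes the IL-5 receptor alpha chain that pairs with the common beta chain. These genes were chosen after their values were seen. Il5ra was at 0.656 TPM in replicate 1 and 26.6 TPM in replicate 2, against 0.356 TPM in HMGA2-OE HSC/P. Fcer1a, the alpha chain of the IgE receptor of basophils and mast cells, was at 0.287 and 46 TPM in the same replicates, against 1.63 TPM in HMGA2-OE HSC/P. Socs2, an inhibitor of cytokine signals, was at 2.74 and 21.1 TPM, against 2.74 TPM. In each case replicate 1 lay close to or below HMGA2-OE HSC/P and replicate 2 far above it. Of the 8 eosinophil, basophil and mast cell markers, the 7 other than Fcer1a were higher in replicate 1.

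Ptprc, which encodes the leukocyte phosphatase CD45, was listed at 0.796 and 0.488 TPM in RUNX1mut/HMGA2-OE HSC/P and 0.511 TPM in HMGA2-OE HSC/P, and in Ly6G+ cells at 1.8 TPM in RUNX1mut/HMGA2-OE, 0.847 TPM in RUNX1mut, 0.392 TPM in HMGA2-OE and 0.456 TPM in Control. CD45 is carried by nearly all blood cells other than red cells, and no library reached 2 TPM. The index behind the TPM is not known here and the assignment of reads to Ptprc was not examined, so these values do not show that CD45 was low.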
